A study of Mus musculus with 47 samples.

Results

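Serpina3n, Fabp7 and 8 further genes that mark astrocytes or their reactive state (Gfap, Vim, C4b, Aqp4, Aldh1l1, Slc1a2, Slc1a3 and S100b) were followed across 47 poly(A) RNA-seq libraries of mouse brainstem and hippocampus. The 10 genes were picked by symbol through their Ensembl identifiers, and each had exactly 1 row in the count table of either region, which makes 10 of 33139 rows in brainstem and 10 of 31751 rows in hippocampus. All 10 passed the filter on low values (50 counts on average among a region's libraries), which left 13340 and 13272 genes to test. Serpina3n and Fabp7 were chosen from these same libraries. Serpina3n was taken for its lower level in hippocampus of transgenic mice and Fabp7 for its higher level in brainstem of transgenic mice on the standard diet. For those contrasts their values are therefore given as a description, with no test as support.

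The libraries came from male C57BL/6 mice, either wild-type (WT) or transgenic (TG). TG mice were homozygous for a human transgene under the Thy1 promoter, which drives it in neurons and not in astrocytes. WT mice stemmed from the same outcross but were bred as a parallel colony, so that genotype and colony cannot be told apart. From weaning to about a year of age the mice received either a standard diet (SD) or a high-fat diet (HFD). The groups WT_SD, WT_HFD, TG_SD and TG_HFD held 6 libraries each in hippocampus, taken as the entire structure, and 5, 6, 6 and 6 libraries in brainstem, taken as the posterior medulla. The labels do not tie a library to an animal, so the p-values measure the spread between libraries. The paper took brainstem and hippocampus from 6 animals per group, so mice may be shared between the regions. Comparisons of the regions treated all libraries as independent, and their p-values do not account for shared mice.

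Astrocytes are the glial cells that clear glutamate and potassium from the space around synapses, regulate water at blood vessels and supply neurons with metabolites. In injured or diseased tissue they enlarge, build up intermediate filaments and secrete complement factors and protease inhibitors, a state called reactive. Of the genes followed here, Gfap and Vim encode intermediate filament proteins, C4b a complement component, Serpina3n a secreted serine protease inhibitor and a common marker of the reactive state, and Fabp7 the brain fatty acid binding protein of radial glia, neural stem cells and astrocytes. Aqp4 encodes the water channel of astrocyte endfeet, Aldh1l1 an enzyme of folate metabolism, Slc1a2 and Slc1a3 the glial glutamate transporters GLT-1 and GLAST, and S100b a calcium-binding protein that oligodendrocytes can also express.

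Library totals ran from 10020784 to 15078812 counts in brainstem and from 11945971 to 17328447 in hippocampus. Choroid plexus markers (Ttr, Folr1, Kl and Clic6) summed to between 11.5 and 2945 CPM (counts scaled by library size) in brainstem, with high and low libraries in every group, and to between 37.7 and 314 CPM in hippocampus. The slope of a library's log2 CPM deviations against the GC content of the genes, per 10 percentage points, lay between -0.0197 and 0.173 in hippocampus of WT_HFD mice and between -0.125 and 0.00523 in TG_HFD mice. In brainstem its median was 0.0497 in WT_SD and 0.132 in WT_HFD against -0.0574 in TG_SD and -0.0205 in TG_HFD, with ranges that overlapped between genotypes. All levels below are CPM after TMM scaling over the 47 libraries, and a level per kilobase of exon is written RPKM. With bulk tissue, fewer cells of a type and less RNA per cell cannot be told apart. A gene is said to have passed, or to have risen or fallen, where edgeR's quasi-likelihood test gave a p-value, adjusted over all tested genes after Benjamini and Hochberg, no higher than 0.05, and the log2 fold change reached 0.3 in size.

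All 10 genes were well detected in both regions, with 173 counts of Fabp7 in 1 hippocampal library as the lowest. Per kilobase, S100b had the highest level of the 10 genes in brainstem at 421.1 ± 49.9 RPKM (SD, n = 23), before Slc1a2 at 119.8 ± 9.39, Gfap at 82.0 ± 20.7 and Aqp4 at 64.6 ± 6.94 RPKM. Slc1a3 at 26.9 ± 3.64, Fabp7 at 22.4 ± 3.98 and Serpina3n at 20.5 ± 3.13 RPKM followed, and Aldh1l1 at 12.7 ± 0.78, C4b at 9.60 ± 3.85 and Vim at 6.66 ± 0.82 RPKM closed the order. Among neighbours in this order, Gfap and Aqp4, Fabp7 and Serpina3n, Aldh1l1 and C4b, and C4b and Vim lay within 1 SD of each other. In hippocampus the order was Slc1a2 at 226.0 ± 15.7 RPKM (SD, n = 24), Slc1a3 at 89.4 ± 9.60, S100b at 85.5 ± 12.2, Gfap at 79.8 ± 10.05, Serpina3n at 29.6 ± 5.25, Aqp4 at 24.6 ± 2.12, Fabp7 at 14.8 ± 3.07, C4b at 10.5 ± 1.58, Aldh1l1 at 9.39 ± 1.10 and Vim at 6.39 ± 0.78 RPKM. There, Slc1a3 and S100b, S100b and Gfap, Serpina3n and Aqp4, and C4b and Aldh1l1 were within 1 SD of each other.

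**Figure D1:**
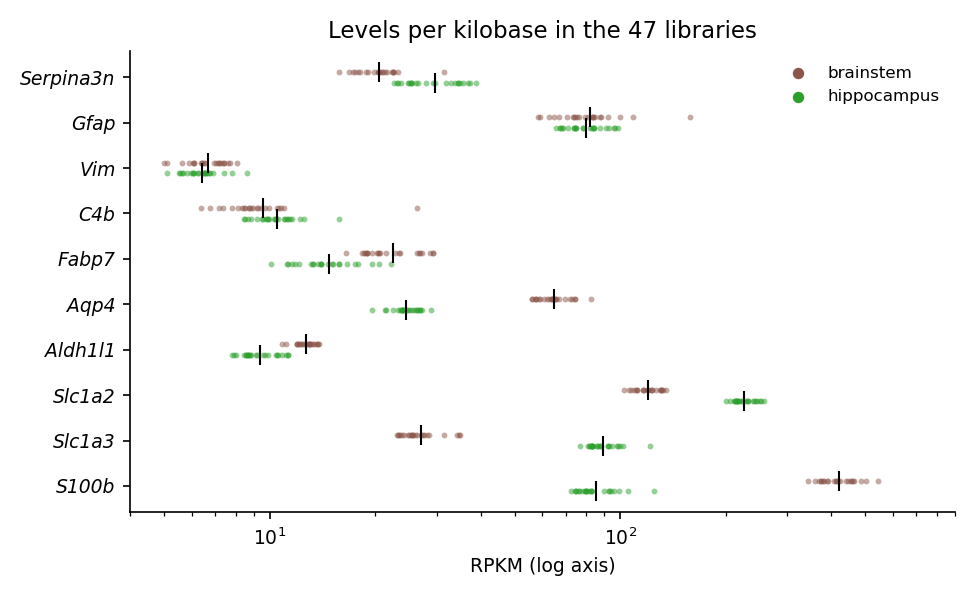
Level of each of the 10 genes in each of the 47 libraries, in RPKM on a log axis, with brainstem in brown (n = 23) and hippocampus in green (n = 24) and a vertical bar at each mean. The clouds of Slc1a3, S100b, Aqp4 and Slc1a2 do not overlap between regions, while those of Gfap, Vim and C4b overlap. How many of all genes lack overlap was not determined, and 60.2% of them passed between the regions.

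The glutamate transporters were higher in hippocampus, and the water channel, S100b, Aldh1l1 and Fabp7 were higher in brainstem. Slc1a3 was at 763 ± 82.0 CPM (SD, n = 24) in hippocampus and 230.1 ± 31.1 CPM (SD, n = 23) in brainstem, a log2 difference of 1.73 (SE 0.0472, adjusted p = 4.9e-35). Slc1a2 was at 2968 ± 206 against 1573 ± 123 CPM, a log2 difference of 0.92 (SE 0.0298, adjusted p = 9.4e-32). Serpina3n was at 61.0 ± 10.8 against 42.4 ± 6.45 CPM, a log2 difference of 0.51 (SE 0.0451, adjusted p = 1.0e-14). In the other direction, S100b was at 624.9 ± 74.1 CPM in brainstem and 127 ± 18.1 CPM in hippocampus, a log2 difference of -2.30 (SE 0.0531, adjusted p = 4.0e-38), and Aqp4 was at 403 ± 43.3 and 153 ± 13.2 CPM, a log2 difference of -1.39 (SE 0.0348, adjusted p = 1.3e-36). Fabp7 at -0.58 (SE 0.0700) and Aldh1l1 at -0.43 (SE 0.0394) on the log2 scale were also lower in hippocampus (adjusted p = 1.7e-10 and 3.3e-14). Gfap at -0.03 (SE 0.0648, 95% interval -0.15 to 0.10), Vim at -0.06 (SE 0.0490, interval -0.15 to 0.04) and C4b at 0.17 (SE 0.0810, interval 0.01 to 0.32) did not pass.

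These 7 of 10 genes compare with 60.2% of all 13462 genes tested that passed between the regions, so most genes separate brainstem from hippocampus. The other genes of astrocyte identity and homeostasis behaved unevenly as well: of 26 tested, 6 were higher and 16 lower in hippocampus, with a median log2 difference of -0.48 against -0.02 over all genes. The potassium channel gene Kcnj10 at -2.10 and the glycolytic enzyme gene Aldoc at -1.20 were lower, and the apolipoprotein gene Clu at 0.54 and Apoe at 0.33 were higher on the log2 scale. Of 8 tested genes of the STAT3 pathway, which drives Gfap in reactive astrocytes, 3 were higher and 4 lower, among them Stat3 at -0.47. Of the fatty acid binding proteins with enough counts, Fabp5 at -0.77 was lower and Fabp3 stayed just under the fold threshold. Oligodendrocyte markers (Mbp, Mog, Mag, Mobp, Cnp, Cldn11 and Mal) summed to between 7754 and 15409 CPM in brainstem and between 2241 and 3618 CPM in hippocampus, with all 7 of 7 lower in hippocampus, and their part in the S100b difference was not tested.

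Serpina3n in hippocampus was lower in TG than in WT mice under either diet. In WT_SD mice its level ran from 61.0 over a median of 72.4 to 80.3 CPM, and in TG_SD mice from 47.6 over 53.1 to 60.5 CPM. In WT_HFD mice it ran from 52.7 over 70.5 to 75.8 CPM, and in TG_HFD mice from 46.6 over 51.4 to 54.6 CPM. On the standard diet all 6 TG libraries were below all 6 WT libraries, with the highest TG_SD library at 60.5 CPM just under the lowest WT_SD library at 61.0 CPM, and on the high-fat diet 5 of 6 TG libraries were, since the WT_HFD library of replicate 6 at 52.7 CPM stood among the TG libraries. The means were 71.5 ± 7.17 and 53.5 ± 5.01 CPM (SD, n = 6 each) for WT_SD and TG_SD, and 68.3 ± 8.08 and 50.7 ± 2.93 CPM (SD, n = 6 each) for WT_HFD and TG_HFD. In the fitted model this made a log2 difference of -0.43 (SE 0.0724), or 0.742 times the WT level, on the standard diet and -0.49 (SE 0.0957), or 0.712 times, on the high-fat diet. Taken over both diets the difference was -0.46 (SE 0.0646), with 69.9 ± 7.47 CPM in 12 WT libraries and 52.1 ± 4.18 CPM in 12 TG libraries. Serpina3n passed in all 3 contrasts, where 0.0904%, 0.226% and 0.256% of all genes passed, but those contrasts chose the gene and nothing is read from the call.

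**Figure D2:**
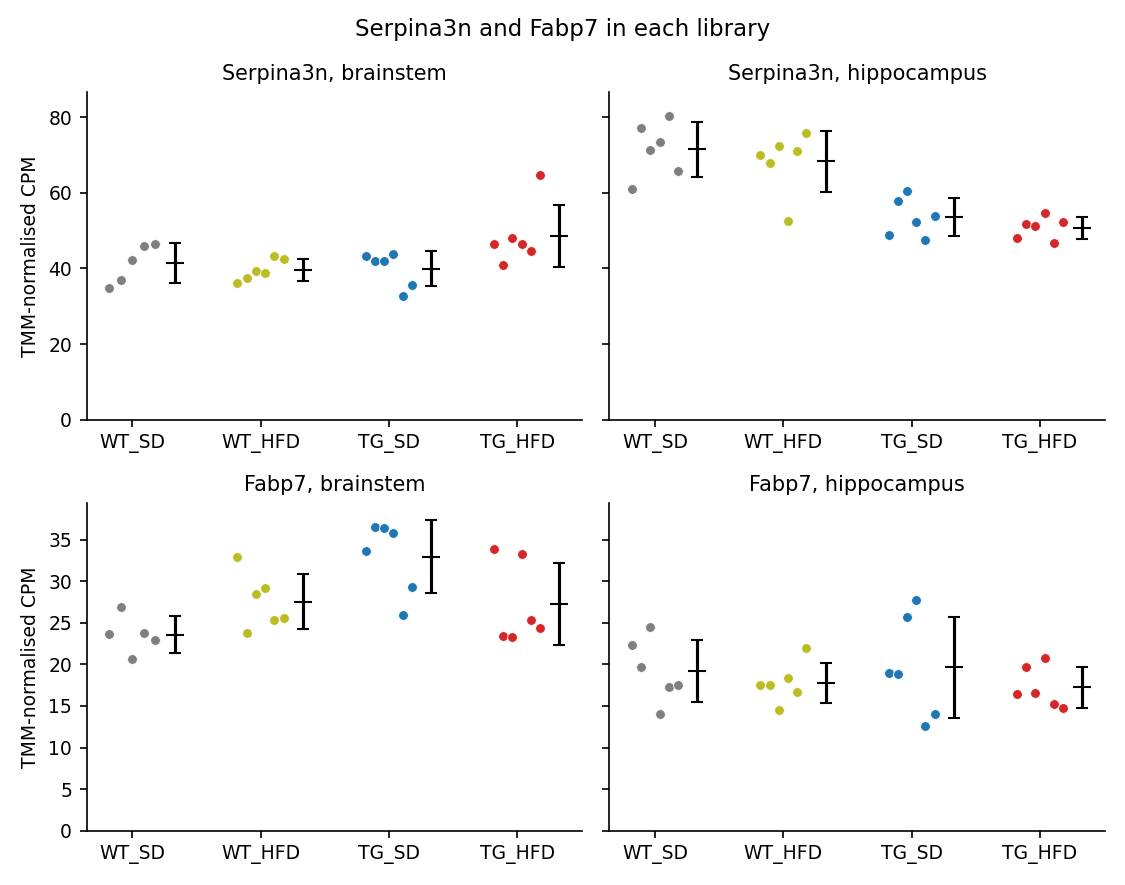
Serpina3n and Fabp7 in every library, in TMM-normalised CPM, by region and group, with the mean ± SD (5 libraries in brainstem WT_SD, 6 in every other group) beside the points. Hippocampal Serpina3n lies lower in TG_SD (47.6 to 60.5) than in WT_SD (61.0 to 80.3), and brainstem Fabp7 is highest in TG_SD (25.9 to 36.5).

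The size of the hippocampal Serpina3n difference stayed between -0.44 and -0.40 on the standard diet and between -0.54 and -0.40 on the high-fat diet over 14 alternative settings. Among them was the main fit with its fold threshold dropped, which leaves the difference as it was. These fits reuse the libraries that chose the gene, so this too is a description. Without surrogate variables, the covariates estimated from the data that the main model carried, it was -0.41 on the standard diet and -0.43 on the high-fat diet. Because the GC slopes of the TG_HFD and WT_HFD libraries differ, the slope was also entered as a covariate, which gave -0.41 on either diet, with the high-fat call lost. The part of the GC slope in the result was not tested further. The standard-diet call was lost without the WT_SD library of replicate 6, at an unchanged -0.43, and leaving out the WT_HFD library of replicate 6 moved the high-fat difference to -0.57. The nearest relatives of Serpina3n had few reads: 7 of 10 other Serpina3 genes were listed, none had enough counts to test, and together they summed to between 0.816 and 3.54 CPM in every library. Their sequences are close to that of Serpina3n, so a small share of reads could have been assigned to either.

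In brainstem Serpina3n had another pattern. The WT_SD libraries were at 34.9, 36.9, 42.3, 46.0 and 46.5 CPM. The TG_SD libraries ran from 32.7 over 42.0 to 43.9 CPM, a log2 difference of -0.01 (SE 0.0929, 95% interval -0.19 to 0.17). WT_HFD ran from 36.1 over 39.1 to 43.2 CPM and TG_HFD from 41.0 over 46.6 to 64.7 CPM. Thus 5 of 6 TG_HFD libraries lay above every WT_HFD and every TG_SD library, with a log2 difference of 0.21 against either, but neither passed (SE 0.111, adjusted p = 0.894 against WT_HFD; SE 0.0942, adjusted p = 0.661 against TG_SD). The TG_HFD library of replicate 8 was the highest, and without it the difference from WT_HFD was 0.13. The difference of genotype effects between the regions was -0.36 on the standard diet (SE 0.129) and -0.73 on the high-fat diet (SE 0.125) on the log2 scale, again a description since it contains the contrasts that chose the gene.

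The promoter of Serpina3n is shown because the account of the hippocampus turns on this gene. The sequence, from the RefSeq promoter table of build GRCm38.p6, covers the 250 bases before the start site at chr12:104406458-104406707 (plus strand), 5′ to 3′, with TGGGAA, the core of the RBPJ site, in capitals on either strand:
Serpina3n: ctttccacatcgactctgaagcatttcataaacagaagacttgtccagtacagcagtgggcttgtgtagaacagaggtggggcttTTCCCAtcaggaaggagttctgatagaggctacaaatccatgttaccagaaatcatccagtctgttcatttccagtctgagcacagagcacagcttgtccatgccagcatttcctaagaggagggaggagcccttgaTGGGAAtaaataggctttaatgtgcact
Matches begin 165 and 28 bases before the start. No CCAAT box, STAT site (TTCNNNGAA), TATA box (TATAAA), AP-1 site (TGANTCA) or E-box (CACGTG) was found in this window, which was searched on both strands together with the 50 bases after the start. Of 32851 promoters in the table, 25.6% hold TGGGAA, and 8.3% hold TTCNNNGAA. The window has 48.7% GC and 3 CpG dinucleotides, against medians of 52.7% and 7 over all promoters.

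Fabp7 in brainstem was highest in TG_SD mice. The WT_SD libraries were at 20.7, 22.9, 23.7, 23.7 and 26.9 CPM, and the TG_SD libraries ran from 25.9 over 34.8 to 36.5 CPM. 5 of 6 TG_SD libraries were above every WT_SD library, with means of 32.96 ± 4.40 (SD, n = 6) and 23.6 ± 2.24 CPM (SD, n = 5). The fitted log2 difference was 0.47 (SE 0.1001), or 1.39 times, in a contrast where 0.142% of all genes passed and which chose the gene. On the high-fat diet the groups lay over each other, with 27.6 ± 3.34 CPM in WT_HFD and 27.3 ± 4.95 CPM in TG_HFD (SD, n = 6 each) and a log2 difference of 0.17 (SE 0.120, 95% interval -0.06 to 0.41, adjusted p = 0.949). Without surrogate variables that difference was -0.01. The interaction of genotype and diet for Fabp7, which contains the contrast that chose it, was -0.30 (SE 0.155).

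The call for brainstem Fabp7 depended on the model more than its size did. The log2 difference was 0.49 without surrogate variables and 0.51 with the GC slope as a covariate, and the call was lost with either. The GC slopes ran from -0.163 to 0.118 in WT_SD and from -0.290 to 0.0178 in TG_SD. Among 16 alternative settings 5 passed, and of 23 fits that left out 1 library 18 passed, while the log2 difference kept its sign in all of them. All that passed carried 4 surrogate variables, as the main model did, and with 0, 1, 2 or 3 the call was lost. The 5 include the main fit with its fold threshold dropped, which could not lose the call. These fits reuse the libraries that chose the gene, so they describe the call and lend it no support. Restricting brainstem to the 12 libraries whose choroid plexus markers summed to no more than 500 CPM (3 of WT_SD and 2 of TG_SD among them) gave 0.63, without a call. In hippocampus Fabp7 was lower than in brainstem and did not separate by genotype, with 19.2 ± 3.75, 17.7 ± 2.44, 19.6 ± 6.07 and 17.2 ± 2.45 CPM (SD, n = 6 each) in WT_SD, WT_HFD, TG_SD and TG_HFD. Its log2 differences between genotypes were 0.13 (SE 0.126, 95% interval -0.12 to 0.37) and -0.01 (SE 0.164, interval -0.33 to 0.31). The region difference of the genotype effect on the standard diet was -0.45 (SE 0.200) for Fabp7.

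The Fabp7 promoter is shown beside that of Serpina3n because it is the other gene taken for a genotype difference. It covers 250 bases before the start at chr10:57784673-57784922 (plus strand, GRCm38.p6), with TGGGAA and CCAAT in capitals on either strand:
Fabp7: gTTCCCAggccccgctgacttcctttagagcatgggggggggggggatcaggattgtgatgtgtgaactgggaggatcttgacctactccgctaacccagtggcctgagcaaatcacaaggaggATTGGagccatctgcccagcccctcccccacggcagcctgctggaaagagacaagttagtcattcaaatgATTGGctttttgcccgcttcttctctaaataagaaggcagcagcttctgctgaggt
TGGGAA lies at the far end of the window and CCAAT begins 126 and 56 bases before the start. CCAAT occurs in 37.4% of all promoters of the table. Over the 8 of 10 genes that the table holds, TGGGAA was found in 5 (Serpina3n, Gfap, Fabp7, Aldh1l1 and S100b), CCAAT in 5 (Vim, Fabp7, Aldh1l1, Slc1a3 and S100b), TTCNNNGAA in Gfap and Slc1a3, and TATAAA, which 13.6% of promoters hold, in Vim and Slc1a3. TGANTCA (7.81% of promoters) and CACGTG (7.15%) were found in none of the 8. C4b and Aqp4 had no entry in the table. A match of letters is a description of the window and not a binding site.

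Gfap and C4b, markers of the reactive state, had their highest mean in brainstem of TG_HFD mice, where 1 library was the highest for both genes. Gfap was at 246, 298, 351, 282 and 421 CPM in the WT_SD libraries and ran from 317 over 349 to 371 CPM in TG_SD. In WT_HFD it ran from 249.4 over 310.0 to 354 CPM, and in TG_HFD from 273 over 371 to 667 CPM, with 3 of 6 libraries above every WT_HFD library. The log2 difference between TG_HFD and WT_HFD was 0.55 for Gfap (SE 0.159, 95% interval 0.24 to 0.87, adjusted p = 0.475). C4b was at 38.6, 42.0, 53.7, 36.2 and 49.6 CPM in WT_SD, ran from 47.5 over 50.7 to 55.1 CPM in TG_SD, from 40.8 over 48.3 to 56.8 CPM in WT_HFD and from 44.6 over 61.0 to 150 CPM in TG_HFD. Its log2 difference between TG_HFD and WT_HFD was 0.59 (SE 0.210, 95% interval 0.18 to 0.997, adjusted p = 0.811), and 5 of 6 TG_HFD libraries were above every WT_HFD library.

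**Figure D3:**
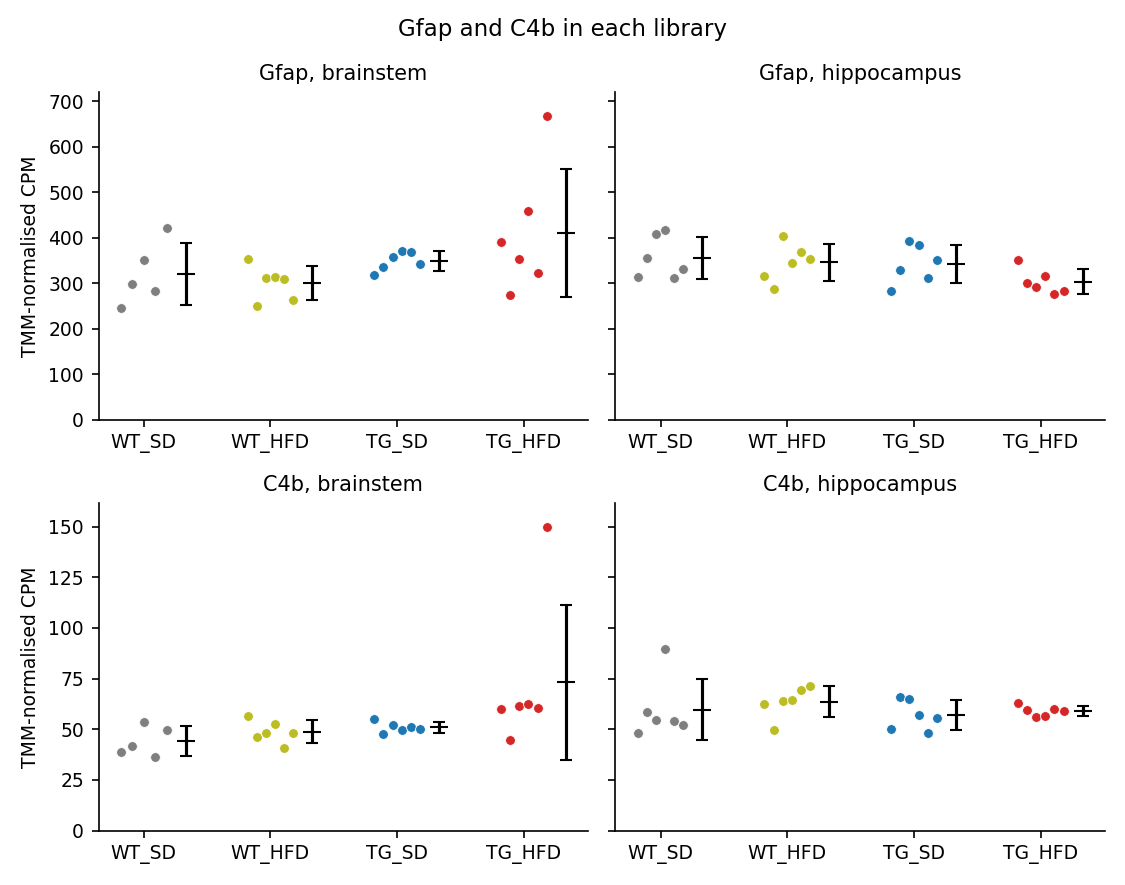
Gfap and C4b in every library, in TMM-normalised CPM, by region and group, with the mean ± SD (5 libraries in brainstem WT_SD, 6 in every other group). In brainstem TG_HFD, replicate 8 is the highest at 667 CPM for Gfap and 150 CPM for C4b, whereas the hippocampal groups overlap throughout.

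The brainstem TG_HFD library of replicate 8 held 667 CPM of Gfap, 150 CPM of C4b, 64.7 CPM of Serpina3n and 514 CPM of Aqp4, the highest of its group in each case. Its microglia markers (Cx3cr1, P2ry12, Tmem119, Aif1, Csf1r, Trem2 and Siglech) summed to 214 CPM, against 154 to 193 CPM over the WT libraries of brainstem, and its complement genes to 332 CPM. Without this library the log2 differences between TG_HFD and WT_HFD were 0.41 for Gfap and 0.34 for C4b, and 0.26 and 0.25 when surrogate variables were dropped as well. None of the 10 genes passed in this contrast (0.0525% of all genes did), and 3 had an unadjusted p up to 0.05, all higher in TG mice, against 5.59% of all genes. They were Gfap, C4b and Aqp4, with Aqp4 at 430 ± 49.0 CPM in TG_HFD and 369 ± 21.5 CPM in WT_HFD (SD, n = 6 each) and a log2 difference of 0.18 (SE 0.0805, adjusted p = 0.865). DESeq2 with the same surrogate variables also called none of the 10 there, whereas Gfap and C4b passed with 2 surrogate variables in place of 4 (adjusted p = 0.0469 and 0.0485) and without the filter on low counts (adjusted p = 0.01003 and 0.0104). With the GC slope as a covariate in place of surrogate variables Gfap was at 0.59 and C4b at 0.73 (adjusted p = 0.445 for both), and the slopes ran from -0.000995 to 0.182 in WT_HFD and from -0.325 to 0.120 in TG_HFD.

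Over both diets, 9 of 10 genes had a positive TG against WT difference in brainstem, with a median log2 value of 0.12 against 0.00 over all genes, but none passed (0.09% of all genes did). An unadjusted p up to 0.05 was reached by 6 of them, against 9.99% of all genes: Gfap at 0.40 (SE 0.102, adjusted p = 0.0826), C4b at 0.48 (SE 0.137, adjusted p = 0.150), Aqp4 at 0.18 (SE 0.0520, adjusted p = 0.143), Vim at 0.14 (SE 0.0616, adjusted p = 0.432), Slc1a3 at 0.10 (SE 0.0401, adjusted p = 0.410) and Fabp7 at 0.32 (SE 0.0786), where the Fabp7 value contains the contrast it was chosen on. Without surrogate variables Vim dropped to 0.02 and Aldh1l1 turned from 0.06 to -0.02. On the standard diet alone, C4b at 0.37 (SE 0.176, adjusted p = 0.470), Aqp4 at 0.19 (SE 0.0657, adjusted p = 0.282) and Gfap at 0.25 (SE 0.128, adjusted p = 0.512) did not pass. Over both diets Serpina3n was at 0.10 (SE 0.0726) and S100b at -0.03 (SE 0.0287).

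**Figure D4:**
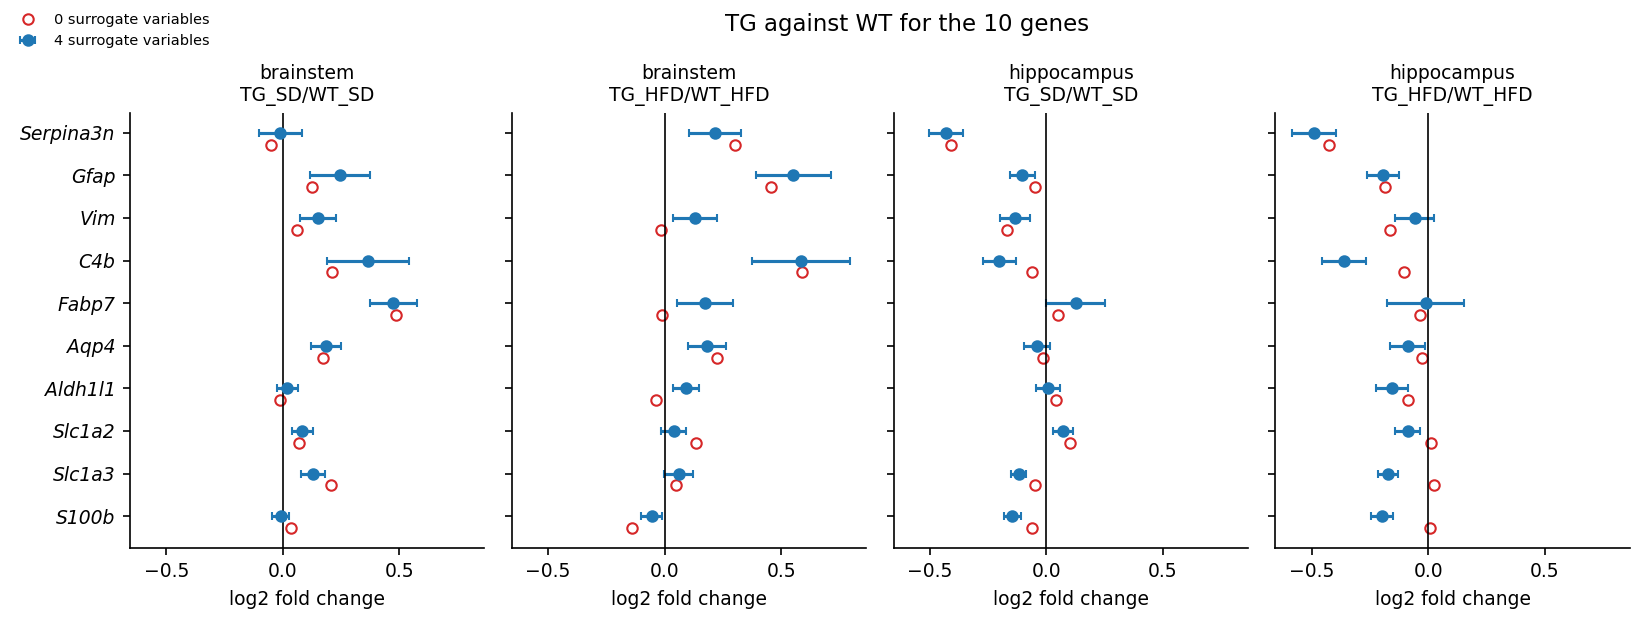
Log2 fold change of TG against WT for the 10 genes in each region and diet, with the model of 4 surrogate variables in blue (bars are ± SE) and the model without any as open red circles. Hippocampal Serpina3n stands apart at -0.43 and -0.49, and for C4b, Slc1a3 and S100b in hippocampus the open circles lie closer to 0 than the filled ones.

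Of the other genes of the reactive program in brainstem, C3 alone passed among the lists tested on the standard diet. Of 8 tested complement genes, all 8 had a positive difference between TG_SD and WT_SD with a median of 0.24 against 0.0013 over all genes, and 1 passed, where 0.142% of all genes did. This was C3, the central complement component, at 0.73 (SE 0.146, adjusted p = 0.0157). On the high-fat diet C3 was at 0.32 (SE 0.173, adjusted p = 0.920), and no tested complement, pan-reactive, A1-type, A2-type, radial glia, intermediate filament, STAT3 pathway or identity gene passed between TG_HFD and WT_HFD in brainstem (0.0525% of all genes did). Back on the standard diet, to which the values below refer, the paralog C4a stood at 0.47 (SE 0.193, adjusted p = 0.360). Since C4a and C4b are nearly identical in sequence, reads may have been split between them. Among the 5 tested pan-reactive genes none passed, with the cytokine receptor gene Osmr at 0.53 (SE 0.166, adjusted p = 0.217), and none of 10 tested genes of the A1-type list or of 4 of the A2-type list did. Nor did Nes, Synm, Plec or Lmna of the intermediate filament network, or any of 7 microglia markers, and the other fatty acid binding proteins with enough counts, Fabp3 at -0.11 and Fabp5 at -0.04, did not pass. None of 11 radial glia genes, 26 identity genes and 8 STAT3 pathway genes passed, with Stat3 at 0.11 (SE 0.0401, adjusted p = 0.277). Without surrogate variables C3 was at 0.61 with an adjusted p of 0.788. Of the marker lists of other cells, Myoc from the meningeal list at 0.85 (adjusted p = 0.00468) and Cldn5 from the endothelial list at 0.39 (adjusted p = 0.0284) were higher in TG_SD than in WT_SD, and neither passed without surrogate variables (adjusted p = 0.308 and 0.788). Both were named because they passed and do not stand for their lists. Between TG_HFD and WT_HFD, Myoc was at 0.52 (adjusted p = 0.773), with Dcn at -0.10 and Col1a2 at -0.13 from the same list. There Cldn5 was at 0.03, and the other endothelial and pericyte genes ran from -0.27 for Pecam1 to 0.12 for Vtn. Choroid plexus sums had a median of 863 CPM in TG_SD and 51.0 CPM in WT_SD, and meningeal sums ran from 62.7 to 77.2 and from 57.2 to 64.9 CPM. In the 12 libraries low in choroid plexus markers, without surrogate variables, C3 was at 0.48, Gfap at 0.03 and C4b at 0.07 between TG_SD and WT_SD, none of them called, and the part of meningeal and endothelial cells was not tested.

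In hippocampus 9 of 10 genes had a TG level below WT over both diets in the fitted model, mostly by small amounts, and without surrogate variables Slc1a2 turned from -0.01 to 0.06. Of these 1 passed, Serpina3n, which was chosen on this difference, so nothing is read from its call. With Serpina3n counted, 4 had an adjusted p up to 0.05 whatever the size of the change, against 0.836% of all genes. Besides Serpina3n these were S100b at -0.17 (SE 0.0323, adjusted p = 0.00387), Slc1a3 at -0.15 (SE 0.0303, adjusted p = 0.0127) and C4b at -0.28 (SE 0.0629, adjusted p = 0.0233). All 3 stayed under the fold threshold, and all 3 rested on the surrogate variables: without them S100b was at -0.03 (adjusted p = 0.883), Slc1a3 at -0.01 (adjusted p = 0.935) and C4b at -0.08 (adjusted p = 0.578). The levels themselves overlapped. S100b ran from 111 to 186 CPM in WT_SD and from 110.4 to 156 in TG_SD, and from 108 to 138 in WT_HFD and 113 to 142 in TG_HFD. On the high-fat diet, S100b moved from -0.20 to 0.01, Slc1a3 from -0.17 to 0.03 and Slc1a2 from -0.09 to 0.01 once surrogate variables were left out, so the direction of these genes was not settled there.

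Gfap in hippocampus was at 356 ± 46.1 CPM in WT_SD, 346 ± 40.9 in WT_HFD, 342 ± 42.4 in TG_SD and 303 ± 27.5 in TG_HFD (SD, n = 6 each). On the log2 scale TG mice differed from WT mice by -0.10 on the standard diet (SE 0.0518, adjusted p = 0.555) and by -0.20 on the high-fat diet (SE 0.0684, adjusted p = 0.239), and the latter was -0.18 without surrogate variables. Vim was at 32.3 ± 3.16, 32.0 ± 4.58, 28.6 ± 2.61 and 28.4 ± 2.90 CPM in the same order of groups, and differed between genotypes by -0.13 on the standard diet (SE 0.0651, adjusted p = 0.546) and by -0.06 on the high-fat diet (SE 0.0852, adjusted p = 0.849). Aqp4 and Aldh1l1 differed between genotypes by -0.04 (SE 0.0572) and 0.01 (SE 0.0517) on the standard diet, and by -0.09 (SE 0.0751) and -0.16 (SE 0.0685) on the high-fat diet, none of which passed. No tested complement, pan-reactive, A1-type, A2-type, radial glia, intermediate filament or STAT3 pathway gene passed between genotypes on either diet. Many genes of these lists had too few counts to test in hippocampus. C3, which passed in brainstem on the standard diet, was among those, so its hippocampal level was not compared. Of 26 identity genes, 1 passed on the high-fat diet (0.226% of all genes did), Cst3, the gene of the protease inhibitor cystatin C, at -0.30 (SE 0.0515, adjusted p = 0.00229), and with the GC slope as a covariate it was at -0.10. The H2-D1 gene of antigen presentation at -0.26 and the bicarbonate transporter gene Slc4a4 at -0.20 had adjusted p-values of 0.0331 and 0.0240 over both diets, under the fold threshold.

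None of the 10 genes passed for diet in either region. In WT mice, HFD against SD gave log2 differences between -0.16 and 0.12 in brainstem and between -0.07 and 0.25 in hippocampus, contrasts in which 0% of all genes passed. At an unadjusted p up to 0.05 there were 0 of the 10 genes in brainstem (5.43% of all genes) and 1 in hippocampus (6.4%), C4b at 0.25 (SE 0.0816, adjusted p = 0.635). In TG mice the differences ran from -0.19 to 0.34 in brainstem, where 0.0075% of all genes passed, and from -0.20 to 0.10 in hippocampus, where 0% did. Serpina3n was the 1 gene at an unadjusted p up to 0.05 in brainstem (6.91% of all genes), and Gfap at -0.12, Aqp4 at -0.12, Aldh1l1 at -0.12 and Slc1a2 at -0.11 were the 4 in hippocampus (7.08%), all lower under HFD. Averaged over genotypes, none passed in brainstem (0.0075% of all genes; 0 of the 10 and 7.95% of all genes at an unadjusted p up to 0.05) or in hippocampus (0% of all genes; 3 of the 10 and 7.22% of all genes), with C4b at 0.18 (SE 0.0519, adjusted p = 0.309), Aqp4 at -0.09 and Gfap at -0.08.

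The interaction of genotype and diet asks whether TG mice responded to HFD as WT mice did. None of the 10 genes passed in brainstem (0.0075% of all genes) or hippocampus (0%). In brainstem 0 of 10 reached an unadjusted p up to 0.05 (4.83% of all genes), and the values ran from -0.30 for Fabp7 to 0.31 for Gfap (SE 0.204, 95% interval -0.09 to 0.71). In hippocampus 2 did (5.98% of all genes), Aldh1l1 at -0.16 (SE 0.0785, adjusted p = 0.826) and Slc1a2 at -0.16 (SE 0.0615, adjusted p = 0.721). Serpina3n stood at 0.23 (SE 0.145) in brainstem and at -0.06 (SE 0.1098, 95% interval -0.28 to 0.15) in hippocampus.

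The genotype effect was also compared between the regions in 1 model of all libraries. On the standard diet none of the 10 genes passed (0.00743% of all genes did, and 2.76% had an unadjusted p up to 0.05, among them Serpina3n and Fabp7). The contrasts of both diets contain the ones that chose Serpina3n, and that of the standard diet the one that chose Fabp7. On the high-fat diet Serpina3n was the 1 gene of the 10 that passed, where 0.00743% of all genes did, and nothing is read from that call. Gfap at -0.64 (SE 0.181, adjusted p = 0.857), C4b at -0.70 (SE 0.225, adjusted p = 0.857) and Aqp4 at -0.25 (SE 0.0960, adjusted p = 0.857) had the same sign, lower in hippocampus of TG_HFD mice relative to brainstem, and did not pass. With Serpina3n, 4 of the 10 genes had an unadjusted p up to 0.05, against 5.65% of all genes. This model had no surrogate variables and kept brainstem TG_HFD replicate 8, the highest of its group for Gfap, C4b and Aqp4.

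Between libraries of the same group, several of the 10 genes varied together in hippocampus, homeostatic genes as well as Gfap, Vim and C4b. Correlations were taken over log2 CPM deviations from the group means, with a permutation test within groups and Benjamini-Hochberg adjustment over all 90 pairs of both regions. In hippocampus 12 of 45 pairs passed an adjusted p of 0.05 for both Pearson's r and Spearman's rho and in brainstem 2 of 45, all of them positive. What share of pairs of other genes would pass was not determined, so the counts are not read as a trait of these genes. In brainstem Vim ran against Slc1a3 (r = -0.50, adjusted p = 0.0734; rho -0.56, adjusted p = 0.0345), which passed by rank only. Slc1a3 and S100b were the tightest pair in hippocampus, with a Pearson r of 0.95 and a Spearman rho of 0.92 (permutation p = 1e-05 for both, the smallest that 100000 permutations can give; adjusted p = 3.0e-04 and 9.0e-04), and r was 0.92 without the 2 libraries farthest from the median. Aldh1l1 followed S100b at r = 0.83 (rho 0.74) and Slc1a3 at r = 0.81 (rho 0.71), and Aqp4 followed Slc1a2 at r = 0.80 (rho 0.71). Gfap was tied to Aldh1l1 (r = 0.77, rho 0.73), S100b (r = 0.70, rho 0.59), Slc1a3 (r = 0.68, rho 0.61) and C4b (r = 0.64, rho 0.67). Vim passed with Aldh1l1 (r = 0.69, rho 0.66), and Aqp4 passed with no gene but Slc1a2. Neither Serpina3n nor Fabp7 passed with any of the other genes in either region.

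In brainstem the pairs that passed were Gfap with C4b (r = 0.83, rho 0.67, adjusted p = 0.0065 and 0.0214) and Aqp4 with Slc1a2 (r = 0.70, rho 0.67, adjusted p = 0.0065 and 0.0175). The first rested in part on TG_HFD replicate 8: r was 0.68 without it and 0.58 without the 2 farthest libraries (adjusted p = 0.152). The second also lost its call without the 2 farthest libraries, at r = 0.61 (adjusted p = 0.0553). Slc1a3 with S100b had an r of 0.53 in brainstem (adjusted p = 0.123), and no test compared it with the hippocampal value. Because all of these are shares of the same libraries, depth and composition are common to both genes of a pair. With the oligodendrocyte marker sum regressed out, Slc1a3 and S100b kept an r of 0.95 in hippocampus, and with the GC slope regressed out it was 0.97.

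**Figure D5:**
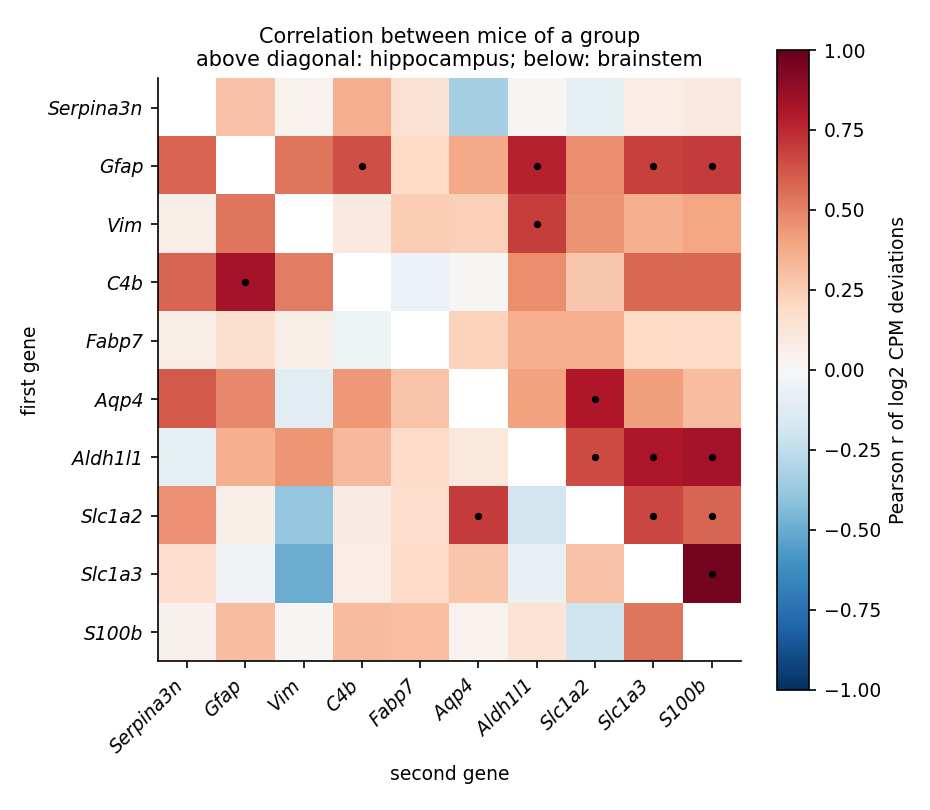
Pearson r of log2 CPM deviations from the group mean for every pair of the 10 genes, with hippocampus (n = 24) above the diagonal and brainstem (n = 23) below it, and a dot where the adjusted p is at most 0.05. Dots gather among Aldh1l1, Slc1a2, Slc1a3, S100b and Gfap in hippocampus, and 2 stand in brainstem.

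The promoters of Slc1a3 and S100b are shown because their levels ran most closely together. Each is the 250 bases before the start, 5′ to 3′ on the gene's strand, in GRCm38.p6, at chr15:8710808-8711057 (minus strand) and chr10:76253586-76253835 (plus strand). Capitals mark CCAAT boxes, the TATA box letters TATAAA and the STAT site letters TTCNNNGAA in Slc1a3, and CCAAT boxes and the RBPJ letters TGGGAA in S100b, on either strand:
Slc1a3: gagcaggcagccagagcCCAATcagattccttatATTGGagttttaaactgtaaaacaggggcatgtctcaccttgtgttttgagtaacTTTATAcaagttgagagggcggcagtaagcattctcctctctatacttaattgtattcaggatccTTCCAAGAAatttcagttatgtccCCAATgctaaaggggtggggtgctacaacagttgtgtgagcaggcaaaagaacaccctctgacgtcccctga
S100b: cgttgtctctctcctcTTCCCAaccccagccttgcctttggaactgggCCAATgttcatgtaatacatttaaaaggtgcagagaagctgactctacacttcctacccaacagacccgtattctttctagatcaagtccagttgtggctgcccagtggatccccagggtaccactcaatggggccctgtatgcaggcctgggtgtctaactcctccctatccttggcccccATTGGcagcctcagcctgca
Of the motifs searched, the pair had CCAAT in common, at 233, 216 and 72 bases before the start in Slc1a3 and at 202 and 20 bases in S100b. The TTCNNNGAA of Slc1a3 begins 96 bases and its TATAAA 161 bases before the start, the latter on the opposite strand.

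Beyond the 10 genes, the profiles most like Serpina3n and Fabp7 were looked up among 12618 genes tested in both regions, ranked by the lower of the Pearson r in brainstem (n = 23) and hippocampus (n = 24) over all libraries of a region. For Serpina3n these were Tmem176a (r = 0.62 and 0.51), Ppp1r18 (0.67 and 0.51), B2m, the light chain of class I antigen presentation (0.57 and 0.48), Gfap (0.66 and 0.47) and Lrp4 (0.47 and 0.46). For Fabp7 they were Emp2 (0.67 and 0.61), the glutamate dehydrogenase gene Glud1 (0.65 and 0.58), the tetraspanin gene Cd63 (0.58 and 0.65), Lhpp (0.70 and 0.54) and Eef1akmt1 (0.54 and 0.53). These correlations include differences between groups, are descriptions of shared libraries, and carry no test.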

How the data were processed

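The authors deposited raw counts of reads per Ensembl gene, 1 table per region. Per the labels and the study's methods these came from single-end 75-base reads of poly(A) libraries, checked with FastQC 0.11.9 and aligned with STAR 2.7.9a to Ensembl release 104, and the authors tested them with DESeq2 1.32.0. The counting step is not given in the sources used here. Columns were matched to samples by their names, and 0 columns belonged to no sample.

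From these counts, edgeR 4.0.16 (R 4.3.3) fitted quasi-likelihood models on genes averaging 50 counts or more in a region, with TMM factors, the 4 groups and 4 surrogate variables from sva 3.50.0, following the authors' use of such variables. Calls required adjusted p-values up to 0.05 with log2 fold changes beyond ±0.3. The regions were compared in a model of 8 groups over 47 libraries without surrogate variables. CPM used TMM factors over the 47 libraries, log2 CPM a prior count of 2, and RPKM the summed exon length of GENCODE M21. Intervals are normal-approximation 95% intervals from the SE. Pair correlations used 100000 permutations within groups. The fit was run on simulated counts with known changes. Those counts held no hidden variation or GC slope between libraries. They therefore do not bear on calls that depend on surrogate variables or the GC slope. Library totals of at least 10020784 counts set the depth.

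The 10 genes, the gene lists and the rules were chosen with earlier results of these data known. Named by rule are the 10 genes, genes of the lists that passed, and the 5 genes most like Serpina3n and Fabp7. C4a, H2-D1, Nes, Osmr, Slc4a4, Stat3, Synm, Plec and Lmna fall outside it and were named after their values were seen. Some genes of the marker lists, and the level of the transgene, are not reported here. No 2 libraries agreed within counting noise. Alternatives were DESeq2 1.42.0, other scaling, filters and numbers of surrogate variables, a GC offset or covariate, a replicate block, and leaving out libraries.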

Additional observations from a re-analysis of the deposited data

Results flagged for a closer look

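In 7 of 80 sets of 1 gene in 1 group, the highest or lowest library stood apart from the rest by Dixon's criterion at 95%, which chance alone passes in about 1 of 20 sets. In brainstem, TG_HFD replicate 8 held 64.7 CPM of Serpina3n (the other libraries of its group 41.0 to 48.0) and 149.7 CPM of C4b (44.6 to 62.7), and WT_SD replicate 6 held 297 CPM of Slc1a3 (198 to 212). The 667 CPM of Gfap in TG_HFD replicate 8 did not meet the criterion. In hippocampus, WT_HFD replicate 6 held 52.7 CPM of Serpina3n (68.0 to 75.8), WT_HFD replicate 5 held 40.9 CPM of Vim (28.3 to 31.9), WT_SD replicate 6 held 89.7 CPM of C4b (48.4 to 58.6), and TG_HFD replicate 3 held 3378 CPM of Slc1a2 (2773 to 2866). WT_SD replicate 6 of hippocampus also had the highest S100b of its region at 186 CPM and the highest Slc1a3 at 1037 CPM, with a microglia marker sum of 273 CPM and the lowest neuron marker sum of its group at 4566 CPM, and their part in the C4b value was not tested. The genotype effect on Serpina3n under the high-fat diet differed between the regions by -0.73 on the log2 scale, a contrast that contains the one the gene was chosen on.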

How the results depend on the processing

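Over the alternative settings other than single libraries left out, 2217 values of single genes kept their side of the threshold, 63 lost a call and 12 gained one. Most values that kept their side were not called in the main fit and stayed uncalled, whatever their sign. The first number is therefore no measure of how stable the calls were. In brainstem, TG_SD against WT_SD had 1 call (Fabp7), and 0 with 0, 1, 2 or 3 surrogate variables, a GC offset, the replicate block, DESeq2 without surrogate variables, only the compared groups, the GC slope as a covariate, the libraries low in choroid plexus markers, or TG_HFD replicate 8 left out together with all surrogate variables. TG_HFD against WT_HFD had 0 calls, and 2 with 2 surrogate variables or no filter. Genotype over both diets had 0, and 1 with DESeq2 on the same surrogate variables, 1 with a filter on a total count of at least 50 and 2 with no filter. In hippocampus, TG_SD against WT_SD had 1 call (Serpina3n), and 0 when only those groups were compared. TG_HFD against WT_HFD had 1, and 0 with the GC slope as a covariate. Genotype over both diets had 1, and 4 with no fold threshold. Of the 2 pairs of genes that passed in brainstem, 0 did without the 2 farthest libraries. No result turned its direction while called. Settings with 3 surrogate variables, DESeq2 without any, the GC covariate, low choroid plexus libraries, TG_HFD replicate 8 left out, and the regressed pair correlations were chosen after seeing the data.

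Leaving out each library in turn gave 0 to 1 calls for brainstem TG_SD against WT_SD (0 without TG_SD replicate 1, 5 or 6 or WT_SD replicate 1 or 6) and 0 to 2 for brainstem genotype over both diets (changed without TG_SD replicate 7, TG_HFD replicate 4 or 7, or WT_SD replicate 8). It gave 0 to 1 for hippocampus TG_SD against WT_SD (0 without WT_SD replicate 6), 0 to 2 for hippocampus TG_HFD against WT_HFD (changed without TG_SD replicate 3, TG_HFD replicate 7, WT_SD replicate 3 or 8, or WT_HFD replicate 4 or 8) and 1 to 2 for hippocampus genotype over both diets (2 without WT_SD replicate 7 or WT_HFD replicate 4). The causes were not tested.

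Libraries with the same replicate number did not all deviate together. Their median correlation was 0.0392 in brainstem (10 of 26 pairs over 0.1) and 0.0651 in hippocampus (15 of 36). For different numbers it was -0.0260 (60 of 172) and -0.0414 (43 of 180). Between the regions within a group it was 0.125 (10 of 17), against -0.0238 (31 of 121) for different numbers. Because the labels do not name the animal, the numbers were not taken as pairs, and the model of both regions had no block. Where libraries of the same mouse stand in both regions, the p-values between regions ignore that pairing. With a replicate block within each region, Serpina3n in hippocampus stood at -0.44 and -0.54 on the standard and high-fat diets and Fabp7 in brainstem at 0.44. Such a block joins libraries of different groups, which are different mice, so it does not address the pairing of regions. Depth limits none of the 10 genes, whose lowest count was 173. Differences under 0.3 on the log2 scale were below the threshold for a call whatever their error, and groups of 5 or 6 libraries give the errors printed beside each value.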
